A study of Mus musculus with 24 samples.

Results

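The late responses of macrophages to 2 stimuli were compared directly: 4 libraries from cells given S14 for 18 h against 4 libraries from cells given lipopolysaccharide (LPS) for 18 h, which are 8 of the 24 libraries of the series. The libraries were chosen by their labels alone. The cells were bone marrow-derived macrophages of C57BL/6J wild-type mice, grown in DMEM with 10% FCS and 15% L929-conditioned medium, plated on day 6 and stimulated in medium without the L929 supplement unless stated otherwise. S14 is sphingomyelin d18:1/14:0 and was given at 30 µM; LPS, a bacterial cell wall lipid, was given at 100 ng/mL; a further set of 4 libraries at 18 h came from untreated cells. The series also holds the same 3 conditions at 3 h, with 4 libraries each. Sample titles of the controls at both times read UT, whereas the headers of their count columns read Veh. The labels thus differ on whether a vehicle was given, and these cells are called untreated here. The age of the mice is not given in the labels, and the series text gives n = 4 without saying whether these are separate mice or cultures, so p-values measure the spread between these libraries, which may be technical. mRNA was read from its 3′ end (QuantSeq FWD, 150 ng RNA, 15 PCR cycles), so a read marks a transcript end whatever the transcript's length. Several reads may be PCR copies of the same end.

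Macrophages sense LPS through Toll-like receptor 4, which starts an NF-kB wave of cytokines and chemokines and, through interferon-beta, a second wave of interferon-stimulated genes. Late after LPS, macrophages are known to shift their metabolism towards glycolysis, to make itaconate and nitric oxide, and to leave the cell cycle. Sphingomyelin is a membrane lipid that binds cholesterol and is broken down in lysosomes to ceramide.

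The 4 S14 libraries held 4307445 to 4831470 reads assigned to genes and the 4 LPS libraries 4626972 to 5130320. Levels are given as CPM, reads scaled to a common library size, as mean ± SD over n = 4, or per library in the order of replicates 1 to 4. Mitochondrially encoded transcripts made up 1.16% ± 0.104 of reads with S14 and 0.651% ± 0.136 with LPS, ribosomal RNA reads 0.287% ± 0.0327 and 0.189% ± 0.0478, and reads of spike-in RNAs 0.0490% ± 0.00523 and 0.0352% ± 0.00934 in the same order; each difference had p = 0.0286 in an exact two-sided permutation test, the smallest that 4 against 4 allows, and 0.0476 adjusted over 5 library measures. All 10 macrophage markers were detected in both groups, with 3 higher and 2 lower with S14 than LPS, and summed to 32923 to 34025 CPM with S14 and 16988 to 25560 CPM with LPS. Lyz2, the most abundant of them, averaged 24035 ± 453 CPM with S14 and 10787 ± 2968 CPM with LPS, whereas Fcgr1 averaged 939 ± 52.2 CPM with S14 and 2257 ± 147 CPM with LPS. Markers of other cells were low. The 9 endothelial and epithelial markers summed to 60.0 to 86.0 CPM with S14 and 77.3 to 127 CPM with LPS, mostly from Kdr (56.0 ± 10.3 and 93.5 ± 20.5 CPM), with Tek, Epcam, Krt8 and Krt18 at 0 reads in both. The 12 neutrophil markers summed to 46.5 to 60.6 CPM with S14 and 122 to 175 CPM with LPS. Most came from Csf3r (47.9 ± 4.9 and 108 ± 20.7 CPM) and S100a8 (5.18 ± 2.46 and 45.5 ± 4.04 CPM), with Mpo, Elane and Prtn3 at 0 reads in both. The 9 fibroblast markers summed to 0 to 2.22 CPM with S14 and 11.0 to 17.9 CPM with LPS. Dcn held most of this (0.754 ± 0.892 and 13.8 ± 3.41 CPM), with Col3a1, Pdgfra and Lum at 0 reads in both. The part of such cells in the results was not tested. In bulk RNA, fewer cells of a type and less RNA per cell cannot be told apart. Of the untreated libraries at 18 h, replicate 4 was the odd one: its median absolute deviation on the log2 scale was 0.379, against 0.206 to 0.228 in the other 3.

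At 18 h, S14 and LPS cells differed in 4996 of 11717 tested genes (edgeR's quasi-likelihood test, adjusted p under 0.05, hereafter called): 2496 genes were higher with S14, or 21.3% of those tested, and 2500 were lower, also 21.3%. A difference of at least 2-fold was reached by 958 higher and 804 lower genes. Set against the same 4 untreated libraries, which both responses share, the direct difference lay mainly on the LPS side under the scaling used here. Of the 958 genes higher with S14, 31 (3.24%) were called higher with S14 than in untreated cells, whereas 897 (93.6%) were called lower with LPS than in untreated cells. Of the 804 genes lower with S14, 45 (5.60%) were called lower with S14 than in untreated cells, and 750 (93.3%) were called higher with LPS. Over all tested genes, S14 against untreated cells gave 12.6% higher and 11.6% lower calls, and LPS against untreated cells gave 27.3% higher and 28.3% lower.

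These directions are relative to the typical gene, since libraries were scaled to each other by TMM, under which the tested genes had a median log2 fold change between S14 and LPS of 0.02. Scaling to spike-in reads (the amount added is not stated in the labels) moved that median to -0.30, the S14 minus untreated median to -0.98 and the LPS minus untreated median to -0.68. Without untreated replicate 4, which held 705 spike-in reads against 1829 to 2444 in the other 3, the last 2 medians were -0.49 and -0.19. LPS replicate 4 was also low, with 1128 spike-in reads against 1799 to 2154 in the other 3, and without it the median between S14 and LPS was -0.03. Under spike-in scaling 519 genes were called higher and 1396 lower with S14 than LPS, so 27.1% of calls were higher, against 2496 of 4996 calls under TMM; without LPS replicate 4, 662 were higher and 780 lower, or 45.9% higher. Of the genes then at least 2-fold higher with S14, 98.8% were lower with LPS than in untreated cells. Of those at least 2-fold lower, 48.9% were higher with LPS and 42.8% lower with S14 than in untreated cells; these shares were 74.0% and 10.5% without untreated replicate 4, and 63.2% and 36.8% without LPS replicate 4.

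**Figure D1:**
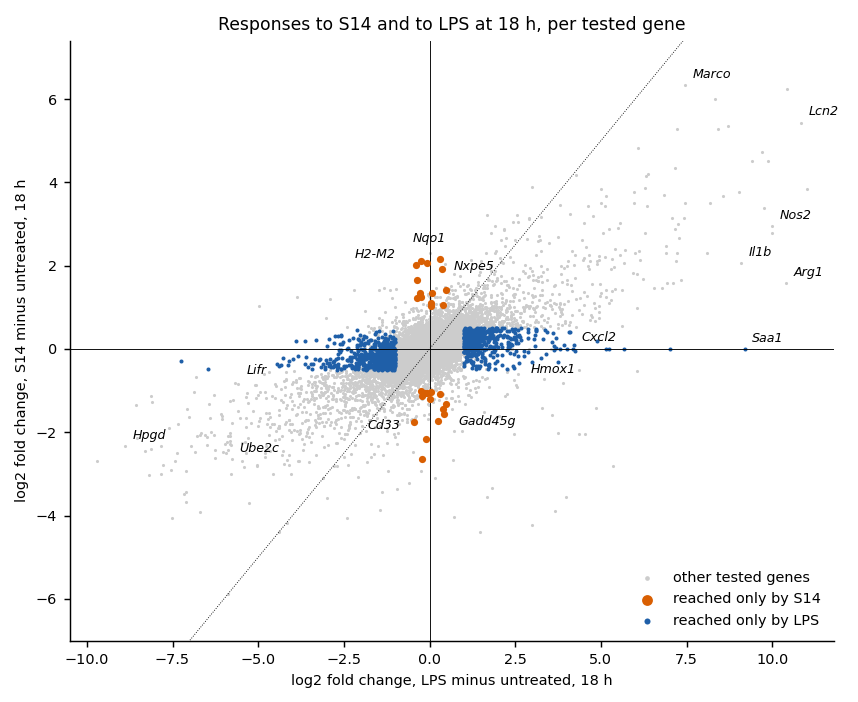
Each point is 1 of 11717 tested genes, placed by its log2 fold change with LPS (horizontal) and with S14 (vertical) against the same 4 untreated libraries at 18 h; the dotted line marks equal responses. Orange points are the 30 genes reached only by S14 and blue points the 1051 reached only by LPS; the cloud is stretched along the LPS axis.

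A gene was counted as reached by only 1 stimulus when that stimulus moved it at least 2-fold from untreated cells (called), the other moved it by less than 0.5 on the log2 scale, and the direct difference was called in the matching direction. A call for the other stimulus against untreated cells did not bar a gene, so a small change with that stimulus is possible. LPS alone reached 1051 genes, 477 upwards (4.07% of those tested) and 574 downwards (4.90%), which is 37.6% of the 2796 genes that LPS moved 2-fold. S14 alone reached 30 genes, 15 upwards (0.128%) and 15 downwards (0.128%), which is 4.26% of the 705 genes that S14 moved 2-fold. Without LPS replicate 4 the S14 count was 18. Under spike-in scaling S14 alone reached 289 genes, 288 of them downwards, and LPS alone 277; of these, 5 and 38 were among the genes listed under TMM. With untreated replicate 4 also left out, the counts were 85 and 738, with 14 and 396 in common. With LPS replicate 4 left out instead, they were 109 and 230, with 3 and 32 in common. Genes named below as reached by only 1 stimulus are those under TMM, unless another scaling is given.

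The clearest gene of the S14-only set was Nqo1, which encodes the quinone reductase NAD(P)H dehydrogenase 1, a classical target of the oxidant-sensing factor NRF2 (GRCm38, chromosome 8, 107388225 to 107403206, minus strand). The S14 libraries held 12.2, 11.7, 21.5 and 25.8 CPM of Nqo1, against 3.98, 4.28, 4.25 and 3.71 CPM with LPS and 5.61, 4.11, 5.45 and 1.75 CPM in untreated cells. Every S14 library lay above every other library at 18 h. The log2 fold change from LPS was 2.12 ± 0.32 (SE; adjusted p = 3.78e-07), and Nqo1 stayed in the set in all 15 refits that changed the tool, the scaling, the filter, the source table, the block or 1 library, and also under spike-in scaling.

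Nxpe5, a neurexophilin-family member of little known function, had 91.7, 92.4, 97.7 and 91.8 CPM with S14, against 28.1, 35.0, 35.8 and 28.6 CPM with LPS and 24.5 ± 4.68 CPM in untreated cells. Chchd10, a protein of the mitochondrial intermembrane space, had 89.7, 93.2, 106 and 102 CPM with S14, against 41.5, 44.0, 52.6 and 49.6 CPM with LPS and 45.5 ± 6.26 CPM in untreated cells. The groups did not overlap for either gene, with log2 fold changes from LPS of 1.55 ± 0.14 (adjusted p = 8.19e-13) for Nxpe5 and 1.06 ± 0.12 (adjusted p = 7.66e-10) for Chchd10. Both stayed in the set in all 15 refits but left it under spike-in scaling, where the difference of Chchd10 from LPS was not called (adjusted p = 0.158). H2-M2, a non-classical MHC class I gene, had 70.0, 87.7, 157 and 128 CPM with S14, against 12.6, 9.56, 26.4 and 33.2 CPM with LPS; 1 untreated library, replicate 4, reached 60.9 CPM while the other 3 held 14.4 to 19.3 CPM. Of the 15 genes in the upward set, 8 were gene models or pseudogenes.

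Downwards, S14 alone reached 6 genes at 10 CPM or more. Gadd45g, a stress-induced growth arrest factor, had 21.7, 18.9, 20.8 and 19.5 CPM with S14, against 88.3, 118, 67.8 and 49.6 CPM with LPS and 60.0 ± 7.14 CPM in untreated cells (log2 fold change from LPS -1.99 ± 0.17, adjusted p = 1.57e-11). Plaur, the urokinase receptor, averaged 6.71 ± 1.62 CPM with S14, 17.7 ± 3.74 CPM with LPS and 14.2 ± 2.79 CPM in untreated cells. Cd33, a sialic acid-binding receptor, averaged 5.15 ± 0.217, 12.6 ± 2.96 and 17.4 ± 3.96 CPM in the same order. The S14 and LPS libraries did not overlap for these 3 genes, and Gadd45g and Plaur stayed in the set under spike-in scaling. Tpx2, a spindle assembly factor, had 20.5, 19.1, 16.8 and 20.9 CPM with S14 and 37.9, 58.9, 31.1 and 17.5 CPM with LPS, so the groups overlapped through LPS replicate 4 (log2 fold change -0.90 ± 0.20, adjusted p = 5.51e-04). Tyw5 and Slfn9 left the set when untreated replicate 4 was left out.

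Among the genes that LPS alone raised, Saa1, which encodes the acute-phase protein serum amyloid A1 (GRCm38, chromosome 7, 46740497 to 46742980, minus strand), had 0 reads in all 4 S14 and all 4 untreated libraries, against 12.6, 18.4, 19.9 and 12.0 CPM with LPS. With a floor of 3 reads over the S14 group, that is at least 98.4-fold higher with LPS than with S14. Its promoter is shown as that of the gene with reads in 1 group only; none of the 9 motifs searched here lies in it, so it has no capitals; the promoters of Hpgd and Upp1, the other extremes found in the table, hold none of them either, and that of Rasgrp3 holds 1 CHR motif (first base at -179) (RefSeq, GRCm38.p6, chr7:46742931-46743230, minus strand).
Saa1 promoter: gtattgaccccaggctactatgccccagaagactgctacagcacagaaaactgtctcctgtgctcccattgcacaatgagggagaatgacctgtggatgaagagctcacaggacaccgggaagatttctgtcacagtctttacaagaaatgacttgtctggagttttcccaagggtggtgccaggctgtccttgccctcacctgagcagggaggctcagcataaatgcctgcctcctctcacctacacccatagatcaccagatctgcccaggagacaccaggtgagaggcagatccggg

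Cxcl2, a neutrophil-attracting chemokine, had 4.39, 6.17, 9.97 and 7.86 CPM with S14, against 131, 114, 155 and 152 CPM with LPS and 7.24 ± 1.40 CPM in untreated cells. The S14 and untreated libraries overlapped and all LPS libraries lay far above both. The same pattern was held by Mmp13, a collagenase (6.52 ± 1.84, 112 ± 23.8 and 6.04 ± 0.933 CPM with S14, LPS and no stimulus), by Inhba, the activin A subunit (2.04 ± 1.08, 27.3 ± 5.96 and 1.53 ± 0.703 CPM), and by Cd200, a ligand of an inhibitory myeloid receptor (0.945 ± 0.633, 16.4 ± 2.70 and 1.17 ± 1.38 CPM). Rgsl1, a regulator of G protein signalling-like gene, averaged 1.31 ± 0.747 CPM with S14, 14.6 ± 1.35 CPM with LPS and 1.10 ± 0.548 CPM in untreated cells. All were called between S14 and LPS, with log2 fold changes from -3.44 for Rgsl1 to -4.29 for Cxcl2.

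Downwards, LPS alone reached a set led by Lifr, the leukemia inhibitory factor receptor, with 21.7, 23.1, 16.8 and 23.6 CPM with S14, against 0.468, 0.755, 2.01 and 1.97 CPM with LPS and 28.5 ± 4.43 CPM in untreated cells. Rapsn, which clusters acetylcholine receptors in muscle, averaged 19.9 ± 2.54 CPM with S14, 1.38 ± 0.114 CPM with LPS and 17.5 ± 0.404 CPM in untreated cells. The sterol enzyme Cyp51 and the fatty acid desaturase Fads2 belonged to the same set and are described with their pathways. Lrrc14b, Frat1 and the metalloprotease Amz1 were also among the 8 lowest, with 10.1 to 18.5 CPM on average with S14 and 1.26 to 2.50 CPM with LPS.

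Directly compared, the 10 genes highest with S14 included Hpgd, Rasgrp3, Ighm, Pclaf, Clec10a, Ciita, Lifr, Rapsn and Cenpf. For all of these except Rapsn the S14 mean lay below the untreated mean. Hpgd, the enzyme that inactivates prostaglandins, had 13.2, 13.0, 9.31 and 18.4 CPM with S14 and 2 reads in all over the 4 LPS libraries, against 63.7, 52.6, 65.0 and 88.6 CPM in untreated cells. The S14 to LPS ratio of Hpgd was 116, with a 95% counting interval of 31.8 to 964. Rasgrp3, a guanine nucleotide exchange factor for Ras, had 43.3, 41.4, 43.9 and 47.8 CPM with S14, against 0.234, 0.252, 2.24 and 0.218 CPM with LPS and 90.6 ± 11.6 CPM in untreated cells (log2 fold change from LPS 5.82 ± 0.31, adjusted p = 4.65e-18). For both genes every S14 library lay between the LPS and the untreated libraries.

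Ighm, the immunoglobulin mu constant region, averaged 19.2 ± 4.77 CPM with S14, 0.584 ± 0.435 CPM with LPS and 132 ± 32.0 CPM in untreated cells. It was the 1 tested gene of the 8 B cell markers, which summed to 13.4 to 24.3 CPM with S14 and 0 to 2.34 CPM with LPS, while Cd79a and Pax5 had 0 reads in both groups; the part of B cells in this value was not tested.

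The 10 genes lowest with S14 were Saa1, Arg1, Upp1, Timp1, Nos2, Il1b, Ak4, Cd38, Gstt4 and Cxcl11. Arg1, the arginase of alternatively activated macrophages, had 1 read in all with S14 and none in untreated cells, against 34.0, 26.4, 34.2 and 51.8 CPM with LPS; the LPS to S14 ratio was 697, with a 95% counting interval of 125 to 27587. Upp1, a uridine phosphorylase, also had 1 read with S14 and averaged 14.8 ± 1.67 CPM with LPS and 0.956 ± 0.867 CPM in untreated cells. Timp1, an inhibitor of matrix metalloproteases, had 2.19, 2.26, 0.886 and 0.674 CPM with S14 and 219, 266, 218 and 199 CPM with LPS (log2 fold change -7.17 ± 0.29, adjusted p = 3.18e-17). Cd38, an NAD-consuming ectoenzyme, averaged 1.13 ± 0.746 CPM with S14 and 94.6 ± 24.6 CPM with LPS, and no library of 1 group reached the other.

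**Figure D2:**
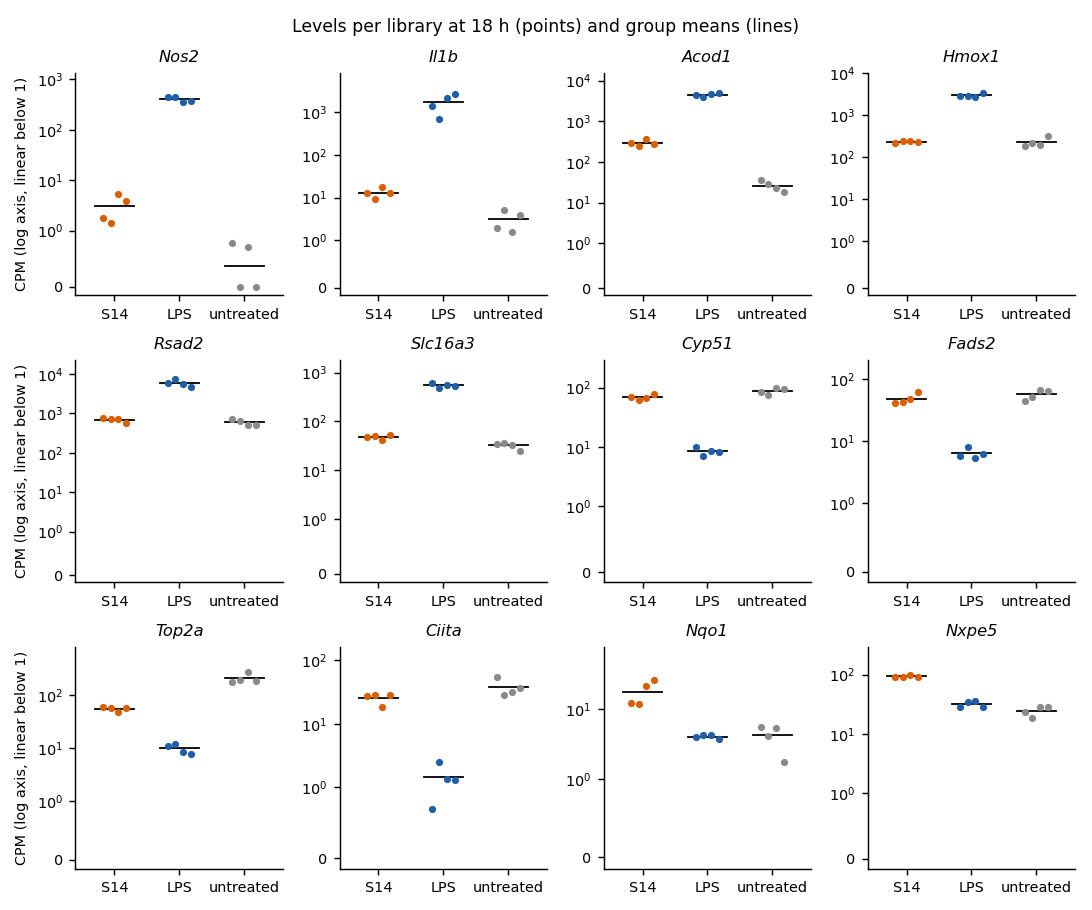
Points are CPM of single libraries at 18 h and lines are group means (n = 4) for 12 genes, with S14 left, LPS in the middle and untreated cells right; the axis is logarithmic and linear below 1 CPM. The LPS libraries stand apart from the S14 libraries in all 12 panels. In some panels, such as those of Hmox1, Rsad2 and Fads2, the S14 and untreated points overlap.

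Secreted inflammatory mediators were mostly lower with S14. Of 18 tested cytokine genes 13 were lower and 2 higher with S14, with a median log2 fold change of -1.88, against 0.02 over all tested genes. Il1b, the pro-form of interleukin-1 beta, had 12.8, 9.06, 17.5 and 12.6 CPM with S14, against 1339, 684, 2094 and 2668 CPM with LPS and 3.10 ± 1.65 CPM in untreated cells (log2 fold change from LPS -7.03 ± 0.41, adjusted p = 2.50e-11). Even the lowest LPS library held far more than any S14 library. Il1rn, which encodes the interleukin-1 receptor antagonist, moved the same way, with 116 ± 13.2 CPM with S14, 3963 ± 1167 CPM with LPS and 42.4 ± 10.8 CPM in untreated cells. Tnf had 19.3, 18.1, 19.5 and 16.8 CPM with S14, against 76.4, 90.6, 104 and 87.1 CPM with LPS and 14.8 ± 1.53 CPM in untreated cells, and belonged to the LPS-only set. Il6 had 1 read in all with S14 and 64 with LPS. Il10, an anti-inflammatory cytokine, had 14.6, 10.7, 9.09 and 8.53 CPM with S14 and 8.67, 9.31, 10.7 and 10.5 CPM with LPS, so the groups overlapped and the difference was not called (log2 fold change 0.13 ± 0.24, adjusted p = 0.689). Il12b had 6 reads with S14 and 11 with LPS over all 4 libraries, too few to show a difference (adjusted p = 0.451).

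Of 22 chemokine genes 18 were lower and 3 higher with S14, with a median of -2.76. Cxcl9 and Cxcl11, interferon-induced ligands of CXCR3, averaged 10.9 ± 1.80 and 2.23 ± 1.56 CPM with S14, against 418 ± 161 and 119 ± 32.0 CPM with LPS. Cxcl10, another such ligand, was reached only by LPS: 83.1, 86.4, 92.4 and 71.2 CPM with S14, against 950, 1091, 1077 and 1060 CPM with LPS and 63.0 ± 26.7 CPM in untreated cells. GENCODE M21 gives Cxcl11 as a polymorphic pseudogene, and whether its reads stand for a working ligand was not tested. Ccl7, a monocyte attractant, averaged 27.0 ± 6.56 CPM with S14, 666 ± 62.3 CPM with LPS and 4.27 ± 0.591 CPM in untreated cells. The 3 chemokines higher with S14 were Ccl9, Ccl6 and Cx3cl1, named after their values were seen.

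Feedback genes of NF-kB followed. Of 22 genes for NF-kB subunits and their regulators 20 were lower and none higher with S14 (median -1.05), and LPS alone reached 12 of them. Nfkbia, the inhibitor IkB alpha, had 517, 473, 559 and 548 CPM with S14, against 1932, 1835, 1806 and 1905 CPM with LPS and 417 ± 19.9 CPM in untreated cells (log2 fold change from LPS -1.83 ± 0.08, adjusted p = 3.47e-23). Tnfaip3, the deubiquitinase A20, averaged 7.61 ± 0.692 CPM with S14, 40.2 ± 2.87 CPM with LPS and 10.7 ± 3.87 CPM in untreated cells. A kB motif core (GGANTTTCC, either strand) lay in 3 of 18 promoters of the list found in the RefSeq table, or 16.7%, against 1.25% of all 32851 promoters of 300 bases. A match is a description and not a site. Here and below, list shares take 1 promoter per gene (the first start), whereas the share of all promoters counts every start given for a gene.

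Enzymes and secreted proteins of host defence held some wide gaps. Of 17 acute-phase and antimicrobial genes 12 were lower and 2 higher with S14 (median -3.14); the 2 were the lysozyme genes Lyz1 and Lyz2, near-identical copies whose reads may be shared. Of 14 genes of arginine, nitric oxide and itaconate metabolism 8 were lower and 1 higher with S14 (median -0.94). Nos2, the inducible nitric oxide synthase, had 1.79, 1.44, 5.32 and 3.82 CPM with S14, against 438, 442, 362 and 376 CPM with LPS and 0.368 ± 0.426 CPM in untreated cells (log2 fold change from LPS -7.05 ± 0.21, adjusted p = 1.13e-20). Acod1, which makes itaconate, had 285, 252, 361 and 274 CPM with S14, against 4340, 3950, 4759 and 5076 CPM with LPS and 26.1 CPM on average in untreated cells. S14 thus raised Acod1 above untreated cells (log2 fold change 3.50, adjusted p = 2.13e-18) but to a level well below that of every LPS library. Lcn2, an iron-scavenging lipocalin, averaged 22.6 ± 8.42 CPM with S14, 956 ± 106 CPM with LPS and 0.539 ± 0.743 CPM in untreated cells.

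Interferon-stimulated antiviral genes were lower with S14 in 39 of 44 tested members and higher in none (median -0.84). LPS called 43 of them higher than untreated cells and S14 called 24 higher and 1 lower, and LPS alone reached 17. Under spike-in scaling S14 called none higher and 24 lower, and LPS 15 higher and none lower. With untreated replicate 4 also left out, S14 called 1 higher and 1 lower and LPS 33 higher. Rsad2, the antiviral protein viperin, had 759, 715, 721 and 587 CPM with S14, against 5852, 7524, 5634 and 4692 CPM with LPS and 594 ± 114 CPM in untreated cells (log2 fold change from LPS -3.09 ± 0.16, adjusted p = 1.08e-12). Ifit1bl1, a member of the interferon-induced tetratricopeptide repeat family, had 63.6, 48.6, 41.2 and 35.5 CPM with S14, against 425, 621, 451 and 424 CPM with LPS; related family members may share its reads. Isg20 and Oasl1, an exonuclease and a 2′-5′-oligoadenylate synthetase-like protein, averaged 115 ± 16.1 and 66.9 ± 11.4 CPM with S14, against 668 ± 158 and 485 ± 95.4 CPM with LPS.

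The promoter of Ifit1bl1, the member with the largest difference, is printed with its ISRE core in capitals (AAANNGAAA, here on the opposite strand; first base at -104 from the start). Such a core lay in 24 of 35 promoters of the list, or 68.6%, against 10.6% of all promoters, and a GAS motif (TTCNNNGAA) in 7 of 35, or 20.0%, against 8.30%. RefSeq lists 2 starts for Ifit1bl1; the first is shown, and the bases after it were not found in a GENCODE M21 transcript (GRCm38.p6, chr19:34601919-34602218, minus strand).
Ifit1bl1 promoter: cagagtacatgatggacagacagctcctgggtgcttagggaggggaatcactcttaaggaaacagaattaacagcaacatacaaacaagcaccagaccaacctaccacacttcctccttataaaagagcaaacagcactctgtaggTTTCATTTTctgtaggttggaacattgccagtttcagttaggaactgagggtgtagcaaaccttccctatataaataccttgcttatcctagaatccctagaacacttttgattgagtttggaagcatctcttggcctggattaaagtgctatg

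Of 14 genes for guanylate-binding proteins and immunity-related GTPases, which act on vacuoles of intracellular microbes, 13 were lower and none higher with S14 (median -1.78). Gbp4 averaged 2.52 ± 0.712 CPM with S14, 36.5 ± 8.25 CPM with LPS and 2.30 ± 1.27 CPM in untreated cells, and Gbp5 21.8 ± 3.54, 153 ± 14.7 and 22.7 ± 15.5 CPM. MHC class I and peptide loading genes were lower in 18 and higher in 1 of 23 members (median -0.47). The single higher member was the peptidase Erap1, named after its value was seen. MHC class I genes are near-identical copies, so values of single members such as H2-Q6 and H2-Q7 are uncertain.

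MHC class II went the other way. Of 11 tested members 8 were higher with S14 and 1, Rfxank, was lower (median 0.59), while against untreated cells S14 called none higher and 2 lower and LPS called 1 higher and 7 lower. Under spike-in scaling 5 were higher and none lower with S14 than LPS, and against untreated cells S14 called 11 lower and LPS 9, or 3 and 6 without untreated replicate 4. Ciita, the transactivator that switches on class II genes, had 27.3, 28.8, 18.4 and 28.5 CPM with S14, against 0.703, 2.52, 1.34 and 1.31 CPM with LPS and 37.8 ± 11.3 CPM in untreated cells (log2 fold change from LPS 4.13 ± 0.32, adjusted p = 3.79e-14). H2-Eb1 had 147, 132, 152 and 150 CPM with S14, against 31.9, 25.7, 26.9 and 18.6 CPM with LPS and 121 ± 12.4 CPM in untreated cells. The S14 and LPS libraries did not overlap for either gene, and neither gene was called between S14 and untreated cells. Cd74, the invariant chain, averaged 454 ± 31.8 CPM with S14, 148 ± 9.34 CPM with LPS and 893 ± 353 CPM in untreated cells, where replicate 4 held 1423 CPM. Clec10a, a lectin linked to alternative activation, had 45.6, 41.2, 31.2 and 36.8 CPM with S14, against 1.17, 1.01, 2.91 and 1.31 CPM with LPS and 93.0 ± 14.9 CPM in untreated cells.

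**Figure D3:**
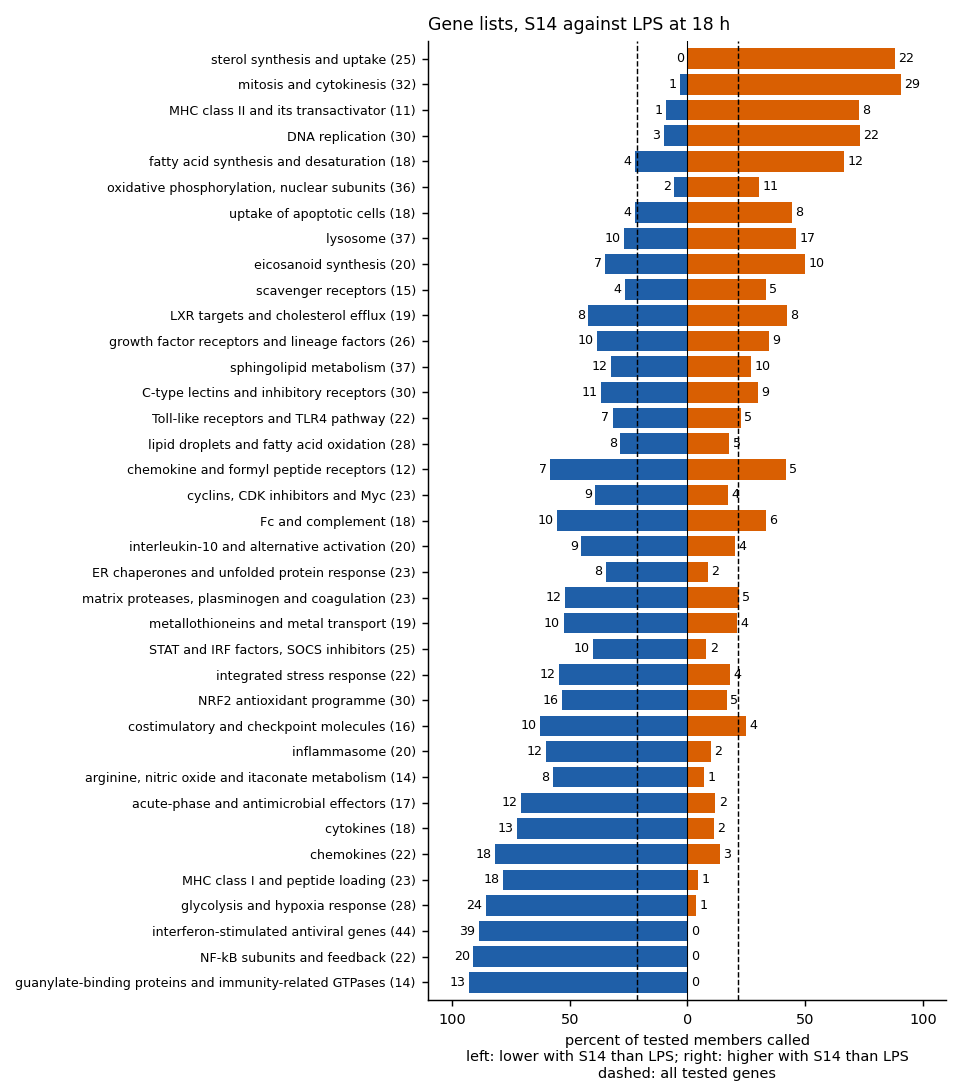
Bars give, for 37 gene lists, the percent of tested members (number in brackets) called higher with S14 than LPS (orange, right) or lower (blue, left), with the number of members at each end; dashed lines mark all tested genes, 21.3% on either side. Sterol synthesis and mitosis stand at the top and guanylate-binding proteins, NF-kB and interferon-stimulated genes at the bottom.

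Glycolysis was reached far more strongly by LPS. Of 28 genes for glycolysis and the hypoxia response 24 were lower and 1, Ndrg1, was higher with S14 (median -1.14). Against untreated cells S14 called 15 higher and 2 lower, and LPS called 25 higher and 1 lower. Under spike-in scaling S14 called none higher and 10 lower, and LPS 20 higher and 1 lower. With untreated replicate 4 also left out, S14 called none higher and 3 lower, and LPS 22 higher and 1 lower. Slc16a3, the lactate exporter MCT4, had 49.2, 49.4, 41.7 and 51.9 CPM with S14, against 599, 489, 568 and 531 CPM with LPS and 32.3 ± 5.28 CPM in untreated cells (log2 fold change from LPS -3.51 ± 0.11, adjusted p = 8.66e-28). Pfkfb3, which makes the activator of phosphofructokinase, averaged 30.9 ± 3.07 CPM with S14, 402 ± 47.1 CPM with LPS and 14.4 ± 4.07 CPM in untreated cells. An HRE core (ACGTG) lay in 15 of 26 promoters of the list, or 57.7%, against 19.6% of all promoters. Nuclear genes of oxidative phosphorylation differed little between the stimuli. With S14, 11 of 36 were higher and 2 lower than with LPS (median 0.12), against 21.3% of all tested genes in either direction. Under spike-in scaling none was called between S14 and LPS, and that median was -0.22, or 0.06 without LPS replicate 4. Against untreated cells S14 called 21 higher and none lower (median 0.35), and LPS 17 higher and 3 lower (median 0.18). Spike-in scaling gave none higher and 17 lower with S14, and none higher and 7 lower with LPS. No member was called for either stimulus when untreated replicate 4 was also left out.

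The NRF2 antioxidant list was split. Of 30 members 16 were lower and 5 higher with S14 (median -0.52), and both stimuli called most members higher than untreated cells, S14 22 and LPS 23; under spike-in scaling S14 called 3 higher and 7 lower and LPS 12 higher and 4 lower. Hmox1, heme oxygenase 1, had 216, 248, 246 and 239 CPM with S14, against 2967, 2896, 2756 and 3375 CPM with LPS and 183, 223, 202 and 323 CPM in untreated cells. The S14 and untreated libraries overlapped, and Hmox1 belonged to the LPS-only set (log2 fold change from LPS -3.66 ± 0.15, adjusted p = 1.77e-16), whereas Nqo1 of the same list belonged to the S14-only set. Sod2, the mitochondrial superoxide dismutase, averaged 359 ± 38.8 CPM with S14, 2092 ± 265 CPM with LPS and 110 ± 10.4 CPM in untreated cells. Gsr, glutathione reductase, averaged 18.6 ± 3.43, 64.8 ± 7.86 and 10.2 ± 4.10 CPM in the same order.

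Sterol synthesis genes were lower with LPS than with S14. Of 25 tested genes of sterol synthesis and uptake 22 were higher and none lower with S14 than LPS (median 1.39). Against untreated cells LPS called 23 lower and none higher (median -1.68), and S14 called 6 lower and 1 higher (median -0.25). LPS alone reached 13 of the 25, all downwards. Under spike-in scaling S14 called 21 lower and none higher (median -1.25), and LPS 25 lower and none higher (median -2.26). With untreated replicate 4 also left out, S14 called 12 lower and none higher (median -0.64), and LPS 21 lower and none higher (median -1.85). Cyp51, lanosterol demethylase, had 69.8, 61.5, 65.8 and 77.2 CPM with S14, against 9.84, 7.05, 8.50 and 8.08 CPM with LPS and 88.1 ± 9.76 CPM in untreated cells (log2 fold change from LPS 3.03 ± 0.19, adjusted p = 2.60e-14). No S14 library came near an LPS library. Fdps, farnesyl diphosphate synthase, averaged 43.1 ± 7.72 CPM with S14, 6.27 ± 2.43 CPM with LPS and 55.0 ± 18.1 CPM in untreated cells, and the sterol carrier Stard4 29.9 ± 4.45, 5.23 ± 0.907 and 36.9 CPM. Ebp and Tm7sf2, named after their values were seen, were among the members not called between S14 and LPS.

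The promoter of Cyp51 is printed as that of a sterol gene reached only by LPS (RefSeq, GRCm38.p6, chr5:4104648-4104947, minus strand), with a CREB motif core (TGACG, first base at -108) and a CCAAT box (CCAAT, first base at -29) in capitals. CCAAT boxes lay in 15 of 18 promoters of the list, or 83.3%, against 37.4% of all promoters; the SREBP motif TCACNCCAC lay in 1 of 18, or 5.56%, against 1.24%.
Cyp51 promoter: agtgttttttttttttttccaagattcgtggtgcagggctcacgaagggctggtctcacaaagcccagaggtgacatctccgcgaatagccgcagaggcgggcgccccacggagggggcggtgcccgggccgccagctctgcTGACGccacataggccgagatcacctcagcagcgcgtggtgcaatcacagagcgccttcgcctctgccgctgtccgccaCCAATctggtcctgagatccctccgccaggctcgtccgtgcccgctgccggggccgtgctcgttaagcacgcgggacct

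Fatty acid synthesis followed in part, with 12 of 18 genes higher and 4 lower with S14 (median 0.52). Under spike-in scaling 5 were higher and 4 lower (median 0.17), or 5 and 1 without LPS replicate 4 (median 0.50). Fads2, which desaturates polyunsaturated fatty acids, had 42.1, 43.0, 48.8 and 62.2 CPM with S14, against 5.86, 8.05, 5.37 and 6.11 CPM with LPS and 57.6 ± 11.1 CPM in untreated cells. Fasn, the fatty acid synthase, averaged 25.4 ± 3.89, 5.04 ± 2.38 and 32.7 ± 5.75 CPM in the same order, and the desaturase Scd1 24.2 ± 2.69, 5.55 ± 1.84 and 22.3 ± 5.05 CPM. Acsl1, an acyl-CoA synthetase known as an inflammatory target, ran opposite, with 114 ± 20.7 CPM with S14, 682 ± 147 CPM with LPS and 39.3 ± 5.63 CPM in untreated cells.

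Genes that handle cholesterol in the cell were divided, with 8 of 19 LXR targets and efflux genes higher and 8 lower with S14. Cyp27a1, sterol 27-hydroxylase, averaged 35.8 ± 4.82 CPM with S14, 4.54 ± 0.994 CPM with LPS and 87.3 ± 26.4 CPM in untreated cells. Apoe and Lpl, an apolipoprotein and lipoprotein lipase, averaged 1089 ± 29.1 and 6473 ± 396 CPM with S14, 377 ± 36.7 and 2306 ± 65.8 CPM with LPS, and 1032 ± 156 and 6704 ± 228 CPM in untreated cells; both belonged to the LPS-only set. Abca1, the cholesterol exporter, had 112, 116, 107 and 123 CPM with S14 and 114, 106, 182 and 189 CPM with LPS, so the groups overlapped. Its log2 fold change was -0.37 ± 0.13 (adjusted p = 0.0167), and the call was lost without LPS replicate 3 (adjusted p = 0.116), LPS replicate 4 (0.144) or S14 replicate 3 (0.0501).

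Genes of sphingolipid metabolism, the pathway to which the S14 lipid belongs, showed no common direction under TMM: 10 of 37 were higher and 12 lower with S14 (median -0.03). S14 against untreated cells called 4 higher and 10 lower, and LPS called 13 in either direction. Under spike-in scaling 2 were higher and 7 lower with S14 than LPS (median -0.32), or 5 and 3 without LPS replicate 4 (median -0.09). Against untreated cells S14 then called 1 higher and 28 lower and LPS 3 higher and 16 lower; without untreated replicate 4, S14 called 1 higher and 13 lower and LPS 7 higher and 10 lower. Sgms2, a sphingomyelin synthase, averaged 3.43 ± 1.20 CPM with S14, 14.8 ± 2.51 CPM with LPS and 2.67 ± 1.79 CPM in untreated cells, and Smpdl3b, a lipid phosphodiesterase that dampens Toll-like receptor signals, 20.8 ± 3.93, 51.7 ± 9.65 and 15.3 ± 2.13 CPM. Hexa, a lysosomal hexosaminidase subunit, had 1036, 1102, 1024 and 1056 CPM with S14, against 441, 402, 415 and 413 CPM with LPS and 1209 ± 74.1 CPM in untreated cells. Sgpp1, which removes phosphate from sphingosine 1-phosphate, averaged 82.9 ± 6.06, 35.8 ± 1.53 and 98.9 ± 7.16 CPM in the same order. Under TMM all 4 of these genes were reached only by LPS, Sgms2 and Smpdl3b upwards and Hexa and Sgpp1 downwards. Of the 1051 genes in the LPS-only set, 38 stayed in it under spike-in scaling. Of 37 lysosome genes 17 were higher and 10 lower with S14, with a median of 0.19 that was -0.09 under spike-in scaling and 0.06 when LPS replicate 4 was also left out.

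**Figure D4:**
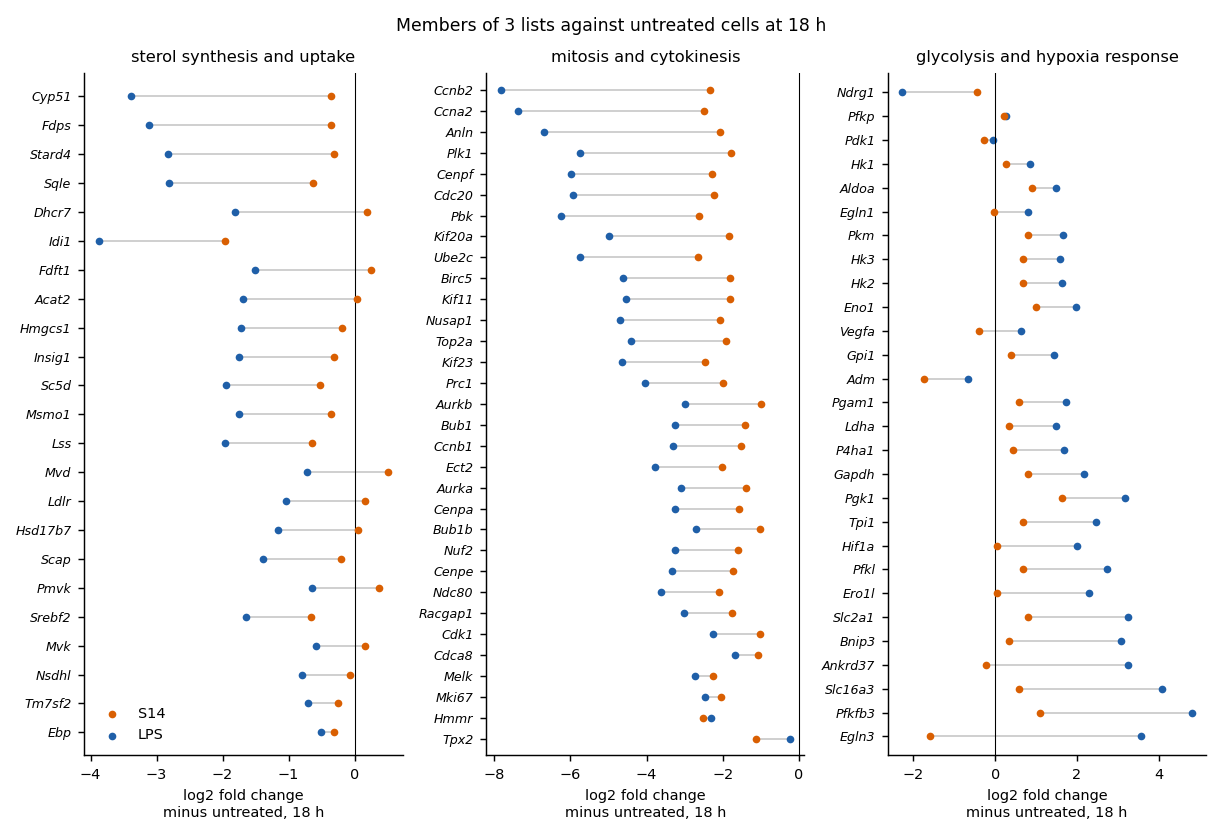
Each row is 1 tested gene of the sterol (23 of 25 shown), mitosis (32) or glycolysis (28) list, with its log2 fold change against untreated cells at 18 h for S14 (orange) and LPS (blue), sorted by the difference. Most sterol genes lie nearer to 0 with S14 than with LPS, which puts all of them left of 0; mitosis genes lie left of 0 with both, most of them farther left with LPS, whereas Tpx2 lies farther left with S14; most glycolysis genes lie farther right with LPS. Under spike-in scaling the S14 medians of all 3 lists move left, that of glycolysis past 0.

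Cell division genes were lower than in untreated cells with both stimuli, and lower still with LPS. Of 32 mitosis and cytokinesis genes all 32 were called lower with S14 and 31 with LPS than in untreated cells (median -1.87 and -3.70). Between the stimuli, 29 were higher with S14 and 1, Tpx2, was lower (median 1.92). Top2a, topoisomerase II alpha, had 59.0, 56.0, 47.2 and 56.6 CPM with S14, against 10.8, 12.1, 8.50 and 7.64 CPM with LPS and 176, 192, 266 and 185 CPM in untreated cells. The 3 groups did not overlap (log2 fold change from LPS 2.50 ± 0.14, adjusted p = 6.68e-19). Ube2c, a ubiquitin-conjugating enzyme of mitotic exit, averaged 16.7 ± 2.42, 1.94 ± 0.689 and 105 ± 33.8 CPM, and the survivin gene Birc5 21.9 ± 2.97, 3.10 ± 1.41 and 76.7 ± 6.23 CPM, with S14, LPS and no stimulus. Mki67, the proliferation marker Ki-67, had 18.5, 15.2, 15.3 and 16.2 CPM with S14 and 14.3, 16.4, 9.85 and 8.52 CPM with LPS; the groups overlapped, and the call (log2 fold change 0.43 ± 0.17, adjusted p = 0.0403) was lost without any 1 of S14 replicates 1 and 4 or LPS replicates 3 and 4 (adjusted p = 0.127, 0.0609, 0.143 and 0.203).

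DNA replication genes gave 22 of 30 higher and 3 lower with S14 than LPS (median 1.15), with 24 and 26 called lower than in untreated cells with S14 and with LPS. Mcm7, a subunit of the replicative helicase, averaged 28.7 ± 3.58 CPM with S14, 4.85 ± 1.61 CPM with LPS and 49.9 ± 5.91 CPM in untreated cells, and Pola1, the catalytic subunit of DNA polymerase alpha, 15.2 ± 1.99 CPM with S14 and 2.81 ± 1.92 CPM with LPS. Pclaf, a PCNA-binding factor, averaged 25.6 ± 6.01, 0.918 ± 0.688 and 80.9 ± 6.99 CPM. The inhibitor of cyclin-dependent kinases Cdkn1a was lower with S14, with 322 ± 10.4 CPM with S14, 968 ± 136 CPM with LPS and 187 ± 24.6 CPM in untreated cells.

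Cenpf, a centromere protein that was among the 10 genes highest with S14, had 13.0, 12.1, 4.65 and 10.3 CPM with S14 and 0, 1.01, 0.671 and 1.31 CPM with LPS. Its promoter is printed as that of a mitosis gene with the cell cycle motifs of the list (RefSeq, GRCm38.p6, chr1:189688037-189688336, minus strand), with 2 CCAAT boxes (first bases at -132 and -71) and a CHR motif (TTTGAA, first base at 3) in capitals. A CHR motif lay in 20 of 27 promoters of the list, or 74.1%, against 17.9% of all promoters, and a CCAAT box in 21 of 27, or 77.8%, against 37.4%.
Cenpf promoter: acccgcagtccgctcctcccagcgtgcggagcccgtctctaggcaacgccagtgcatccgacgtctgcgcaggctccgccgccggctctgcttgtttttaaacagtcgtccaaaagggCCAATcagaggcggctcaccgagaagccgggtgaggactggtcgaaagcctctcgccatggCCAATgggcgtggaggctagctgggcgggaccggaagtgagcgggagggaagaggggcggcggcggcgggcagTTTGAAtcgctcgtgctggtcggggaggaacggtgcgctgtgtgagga

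Receptors and other surface genes differed in both directions. Tlr4, the LPS receptor, had 82.9, 91.6, 75.1 and 72.8 CPM with S14, against 56.4, 57.1, 64.2 and 65.5 CPM with LPS and 92.3 ± 3.10 CPM in untreated cells (log2 fold change from LPS 0.41 ± 0.10, adjusted p = 1.43e-03), and the difference was not called under spike-in scaling, with or without LPS replicate 4. Nlrp3, the inflammasome sensor, had 13.8, 14.4, 13.5 and 13.9 CPM with S14, against 22.7, 18.9, 30.2 and 33.0 CPM with LPS and 20.4 ± 2.34 CPM in untreated cells. All S14 libraries lay below all LPS libraries. Under spike-in scaling without LPS replicate 4, neither Nlrp3 nor Marco was called. Marco, a scavenger receptor for bacteria, was raised by both, to 128 ± 31.5 CPM with S14 and 280 ± 116 CPM with LPS, against 1.54 ± 0.415 CPM in untreated cells. Cx3cr1, the fractalkine receptor, averaged 42.4 ± 12.3, 8.70 ± 3.65 and 148 ± 89.7 CPM in S14, LPS and untreated cells, and Clec7a, the beta-glucan receptor Dectin-1, 162 ± 27.0, 27.6 ± 6.97 and 248 ± 52.3 CPM.

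The bridging proteins Gas6 and Pros1, which tag dying cells for uptake, belonged to the set that LPS alone lowered. Gas6 had 522, 503, 444 and 444 CPM with S14, against 127, 119, 99.8 and 126 CPM with LPS and 581 ± 28.3 CPM in untreated cells (log2 fold change from LPS 2.02 ± 0.08, adjusted p = 2.63e-23). Every S14 library of Gas6 thus lay below the untreated mean, though far less so than the LPS libraries. Over the whole uptake list 8 of 18 genes were higher and 4 lower with S14, with a median of 0.22 that was -0.06 under spike-in scaling and 0.14 when LPS replicate 4 was also left out. Eicosanoid synthesis genes ran in both directions, with 10 of 20 higher and 7 lower with S14 (median 0.29, or -0.02 under spike-in scaling and 0.23 when LPS replicate 4 was also left out). The prostaglandin enzymes Ptgs2 and Ptges, which act opposite to Hpgd, averaged 3.59 ± 0.723 and 3.51 ± 1.03 CPM with S14, against 87.3 ± 8.42 and 91.5 ± 22.0 CPM with LPS, so both of these were lower and the inactivating gene Hpgd higher with S14 than with LPS.

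Set against the same comparison at 3 h, the difference between S14 and LPS was of another size at 18 h for 4773 genes, 2518 higher (21.5%) and 2255 lower (19.2%). Medians here are under TMM, where that of all tested genes was 0.02 at 18 h and 0.07 at 3 h. List medians at 3 h were not taken under spike-in scaling. Interferon-stimulated genes lay closer together at 18 h, with a median of -0.84 against -2.03 at 3 h and 38 of 44 members called for the change towards S14. The guanylate-binding list shifted the same way, with medians of -1.78 at 18 h and -3.54 at 3 h. Glycolysis genes moved apart, with a median of -1.14 at 18 h and of 0.13 at 3 h, near that of all tested genes. Of 28 members 21 were called for the change towards LPS. The NRF2 list (-0.52 at 18 h and 0.29 at 3 h, 19 of 30 called) and the integrated stress response (-0.63 and 0.35, 12 of 22 called) changed sides. Mitosis genes had a median of 1.92 at 18 h and 0.67 at 3 h, with 22 of 32 called.

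Some single genes diverged late, whereas Il10 lay closer together at 18 h than at 3 h. At 18 h Hmox1 averaged 237 ± 14.7 CPM with S14 and 2999 ± 266 CPM with LPS, whereas at 3 h it averaged 373 ± 56.1 CPM with S14 and 168 ± 25.9 CPM with LPS. Il10 averaged 10.7 ± 2.72 CPM with S14 and 9.80 ± 0.979 CPM with LPS at 18 h, where it was not called, and 9.03 ± 2.15 and 192 ± 5.19 CPM at 3 h. Tnf averaged 18.4 ± 1.24 CPM with S14 and 89.5 ± 11.4 CPM with LPS at 18 h, and 697 ± 70.5 and 879 ± 73.1 CPM at 3 h. Among genes of the cell cycle, Kif14, a mitotic kinesin, had 42 reads with S14 and 0 with LPS at 18 h, which is at least 12.8-fold higher with S14, while at 3 h it averaged 13.5 ± 1.20 CPM with S14 and 12.6 ± 1.79 CPM with LPS. Egln3, an oxygen-sensing prolyl hydroxylase, averaged 0.267 ± 0.315 CPM with S14 and 10.4 ± 1.46 CPM with LPS at 18 h, and 5.58 ± 2.50 and 2.26 ± 1.23 CPM at 3 h.

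**Figure D5:**
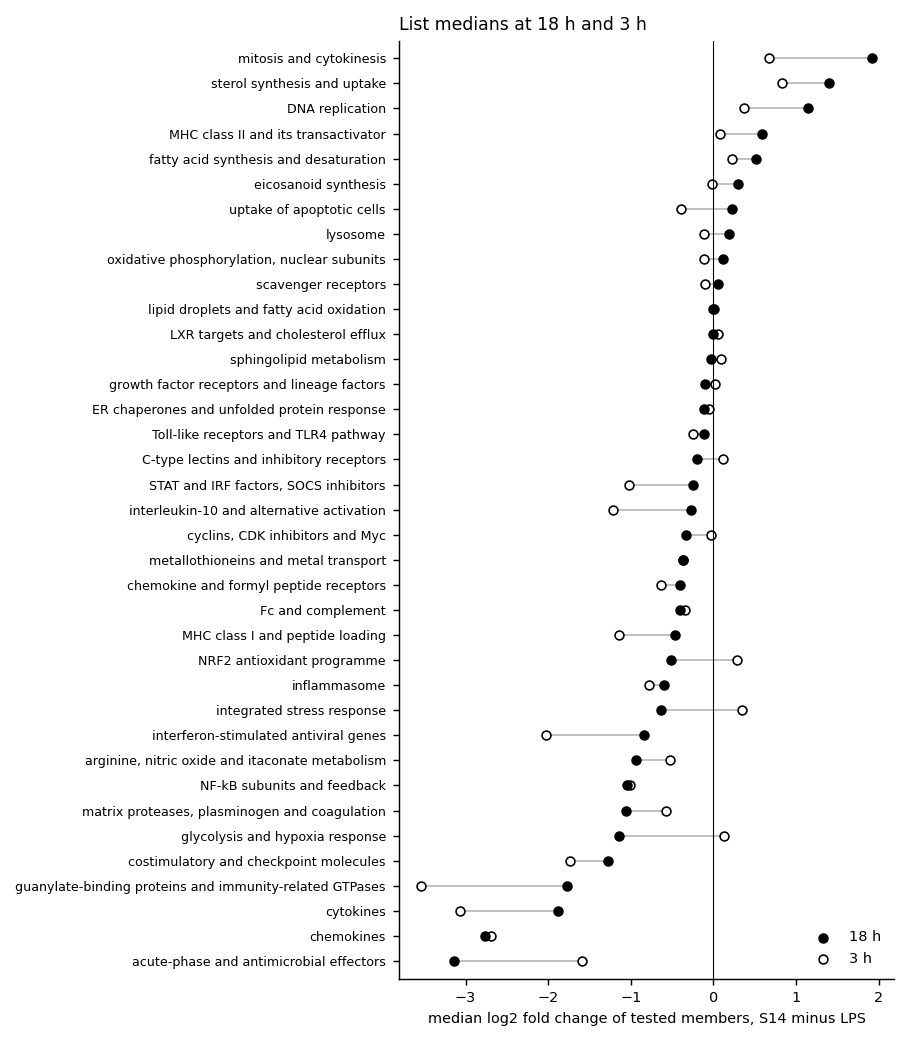
Points are the median log2 fold change (S14 minus LPS) of the tested members of 37 gene lists, at 18 h (filled) and at 3 h (open). Interferon-stimulated and guanylate-binding genes lie nearer to 0 at 18 h, glycolysis and the NRF2 programme lie right of 0 at 3 h and left of 0 at 18 h, and mitosis lies farther right at 18 h. All points are under TMM, where the 3 h median of all tested genes was 0.07, near that of glycolysis. Under spike-in scaling the 18 h medians of oxidative phosphorylation, lysosome, uptake, eicosanoid, scavenger receptor and lipid droplet genes fall left of 0; without LPS replicate 4 the first 4 of these lie right of 0.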

How the data were processed

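Reads of 24 libraries (QuantSeq 3′ mRNA-Seq FWD) were processed by the submitters with cutadapt 1.18, STAR 2.6.1a and featureCounts 1.6.4 on GRCm38, per the submitters' processing notes; no source read here gives the strand setting. The deposited table of raw counts per gene was the main input. A second deposited table holds gene signal that the authors divided by size factors; whole reads were recovered from it (largest deviation 8.59e-10 reads) for spike-in RNAs and an alternative fit. Beside 55401 genes there were 7 rRNA entries, which were set aside. After edgeR's filterByExpr, 11717 genes were tested. One quasi-likelihood model (edgeR 4.0.16, R 4.3.3, TMM, 6 groups, 18 residual degrees of freedom) gave all contrasts, with Benjamini-Hochberg adjustment and a threshold of 0.05; SE was derived from the F statistic.

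Genes were named by rank: the 10 highest and 10 lowest differences between groups that did not overlap at 10 CPM or more, the 4 largest of each list, 8 per direction of each one-stimulus set, 5 per direction of the time difference, and index genes. Some genes that meet these rules are not reported here. Members and gene lists were chosen with earlier results of these data known. Counting intervals and floors (3 reads over a group) cover counting error only and treat reads as independent, which PCR copies are not. Genes with near-identical or overlapping copies may share reads. Replicate numbers were not used for pairing. Positions are from GENCODE M21, promoters (250 bases before to 50 after the start) from RefSeq. Alternatives included DESeq2 1.42.0, spike-in scaling, other filters and leaving out libraries. The pipeline was tested on simulated data.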

Additional observations from a re-analysis of the deposited data

Results flagged for a closer look

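In 214 sets of 4 libraries, 16 had a library far from its 3 group members, where chance gives about 1 in 20. In LPS cells, replicate 3 was the highest for Rasgrp3 (2.24 CPM) and Clec10a (2.91 CPM), replicate 2 was the highest for Ifit1bl1 (621 CPM) and the lowest for Cx3cr1 (3.27 CPM), and replicate 4 was the lowest for Cyp27a1 (3.06 CPM). In S14 cells, replicate 3 was the lowest for Ciita (18.4 CPM) and Cd200 (0 CPM) and the highest for Upp1 (0.222 CPM), Nxpe5 (97.7 CPM) and Il12b (1.33 CPM). Replicate 1 was the highest for Arg1 (0.199 CPM), Gstt4 (0.399 CPM), Il6 (0.199 CPM) and Slfn9 (28.9 CPM) and the lowest for Tnfaip3 (6.58 CPM), and replicate 2 the highest for H2-Aa (200 CPM). The values of Arg1, Upp1 and Il6 are single reads.

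The S14 minus LPS difference was not the same at 18 h and at 3 h for 4773 genes by the interaction term of the edgeR fit. It lay higher at 18 h, in log2 units, for Gprc5c (10.41), Hpgd (7.10), Kif14 (6.30), Kmo (5.78), Il10 (4.54), Tlr4 (0.97) and Mki67 (0.54). It lay lower at 18 h for Arg1 (-10.41), Ak4 (-6.87), Cnr2 (-6.47), Egln3 (-6.46), Saa1 (-6.29), Hmox1 (-4.81), Il1b (-4.04), Nos2 (-2.42), Acod1 (-2.25), Tnf (-1.94) and Nlrp3 (-0.99). Several of these genes have groups at or near 0 reads, where a fitted change depends on the prior count and is no bound.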

How the results depend on the processing

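Of 181 named genes, 153 kept their direction and call under all 19 alternatives. Most named genes were picked for large called differences in these same data, so this share does not carry over to all tested genes. Under spike-in scaling 1915 genes were called between S14 and LPS (519 higher, 1396 lower), 7639 between S14 and untreated cells, and 1168 for the difference between 18 h and 3 h; S14 alone reached 289 genes and LPS alone 277. With untreated replicate 4 also left out, an alternative chosen after seeing the data, 869 genes were higher with S14 than LPS, LPS against untreated cells gave 4018 calls, the time difference 2581, and S14 alone reached 85 genes. With LPS replicate 4 left out instead, also chosen after seeing the data, 1442 genes were called between S14 and LPS (662 higher, 780 lower), 8158 between S14 and untreated cells and 1378 for the time difference, and S14 alone reached 109 genes and LPS alone 230. A 1.5-fold minimum gave 107 genes for S14 alone and 2211 for LPS alone; requiring the other stimulus to lie within 0.25 log2 units gave 13 and 511. Leaving out each S14 and LPS library, or untreated replicate 4, in turn gave 18 (without LPS replicate 4) to 30 genes for S14 alone.

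The log2 fold change of Il10 was -0.20 under spike-in scaling and -0.18 when untreated replicate 4 was also left out, but 0.11 when LPS replicate 4 was left out, and ran from -0.053 without S14 replicate 1 to 0.23 without S14 replicate 4. That of Il12b ran from -4.63 without S14 replicate 3, where it was called, to 0.46 without LPS replicate 2. The cause of these changes was not tested. Deviations of same-numbered S14 and LPS libraries correlated weakly (r from 0.0097 to 0.0927). The best LPS match of S14 replicates 2, 3 and 4 was the same-numbered library, and that of replicate 1 was LPS replicate 2. With 4 libraries per group these values cannot decide whether the numbers mark pairs, and they were not used as such. A fit with the replicate block gave 5057 calls between S14 and LPS, against 4996. Il12b had few reads at this depth, and its call turned on 1 library.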

Other observations

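Genes that the stimuli moved in opposite directions were few. At 2-fold in both directions and called in both, 3 genes were lower with S14 and higher with LPS than in untreated cells, and none went the other way; they were named after their values were seen. Gypc, glycophorin C, averaged 2.10 ± 1.10 CPM with S14, 18.4 ± 3.64 CPM with LPS and 6.12 ± 1.07 CPM in untreated cells (SD, n = 4 each). Its log2 fold change between S14 and LPS was -3.10 ± 0.27 (SE; adjusted p = 4.45e-13, edgeR). The others were Upp1 and the gene model Gm11613.

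Some lists showed little common direction under TMM. Toll-like receptor pathway genes gave 5 of 22 higher and 7 lower with S14 than LPS, C-type lectins and inhibitory receptors 9 of 30 higher and 11 lower, and growth factor receptors and lineage factors 9 of 26 higher and 10 lower. Under spike-in scaling these counts were 0 higher and 5 lower, 4 and 10, and 1 and 7; without LPS replicate 4 they were 1 and 1, 5 and 6, and 2 and 6.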
